A study of Canis lupus familiaris with 10 samples.

Results

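Immediate early genes switch on within minutes of a stimulus without any need for new protein, and 10 of them were followed here through a calcium switch in MDCK, a canine kidney line of epithelial cells. The 10 were EGR1, EGR2, EGR3, FOS, FOSB, FOSL1, JUN, JUNB, IER2 and IER3. Each was taken by its symbol and was named by 1 probe set of the array, so 10 of the 15947 genes with a symbol are described. A calcium switch removes calcium, which opens the junctions between cells, and then restores it so that they close again. The series title asks what the lipid 12-HHT (12-hydroxyheptadecatrienoic acid) and its receptor BLT2 do to gene expression after that switch.

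A line of MDCK cells overexpressing human BLT2 (BLT2) was set against a Mock line. The labels do not say whether either line is 1 clone, and name no vehicle for 12-HHT. Each line was sampled as a confluent culture in DMEM with 10% FCS (0 h), after 2 h and 18 h in SMEM, a medium without calcium, after 18 h in SMEM and 2 h back in DMEM (calcium return), and after the same return with 200 nM 12-HHT. Each of the 10 combinations had 1 GeneChip Canine Gene 1.0 ST array, hybridised with RNA mixed from 3 preparations, so no replicate arrays exist. Values are log2 signals, in which a difference of 1 is a 2-fold change.

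The EGR proteins are zinc finger transcription factors that bind GC-rich sites. FOS proteins pair with JUN proteins through a leucine zipper to form AP-1, which drives genes of growth, migration and matrix remodelling. FOS, FOSB, JUN and JUNB are fast members of AP-1, while FOSL1 tends to accumulate later and to be sustained by ERK signalling. IER2 is a nuclear regulator of transcription, and IER3 is a short protein that acts in cell survival and ERK signalling. In epithelial cells the serum response factor SRF, its ETS partners and the MAP kinases are the usual route to EGR1 and FOS, and fresh serum, wounding and loss of cell contact are classic triggers.

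Array medians lay between 7.16 and 7.27, and each array's mean correlation with the rest was 0.982 to 0.987, except for BLT2 cells at 2 h, where it was 0.975. On every array 5 of 6 epithelial markers exceeded 7.21, the median of all signals, with CDH1 (E-cadherin) at 12.22 to 12.86 and EPCAM at 11.04 to 11.39. The epithelial list averaged 10.51 to 10.74 in BLT2 cells and 10.34 to 10.55 in Mock cells. The fibroblast list averaged 6.26 to 6.58 in BLT2 cells and 6.23 to 6.53 in Mock cells, with COL1A1 the only 1 of its 6 genes above 7.21 on every array. The endothelial list averaged 5.79 to 6.17 in BLT2 cells and 5.80 to 6.09 in Mock cells, and the leukocyte list 5.63 to 6.0 in BLT2 cells and 5.69 to 5.98 in Mock cells, each with 0 of 4 genes above 7.21 on every array. The leukocyte marker CD14 lay between 7.16 and 7.90, and fell by 0.55 ± 0.14 from 2 h to 18 h (limma adjusted p = 0.0338), which was not called when any 1 of the 2 h or 18 h arrays was left out (up to 0.199), nor with no signal filter, median centring or no line term (up to 0.118). The part of these signals in the results below was not tested. CDH1 rose by 0.53 ± 0.10 at 18 h over 0 h (limma adjusted p = 0.008), which was not called when either 0 h array or Mock at 18 h was left out (up to 0.0727). The receptor transcript itself was not analysed here.

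A gene was tested when its signal exceeded 7.21 on at least 2 arrays, which held for 10498 genes and all 10 members. For 3 members this rested on few arrays. EGR2 passed on 2 arrays, those at 2 h, EGR3 on 2 arrays, both of BLT2 cells, and FOSB on 3 arrays. Values at or below 7.21 carry little information on change. Step changes below are log2 values ± SE from 1 limma fit of line and step over all 10 arrays, with p-values adjusted by Benjamini and Hochberg over the 10498 genes and a threshold of 0.05. The error of that fit is what line and step leave unexplained, so it holds both array noise and unequal responses of the lines.

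**Figure D1:**
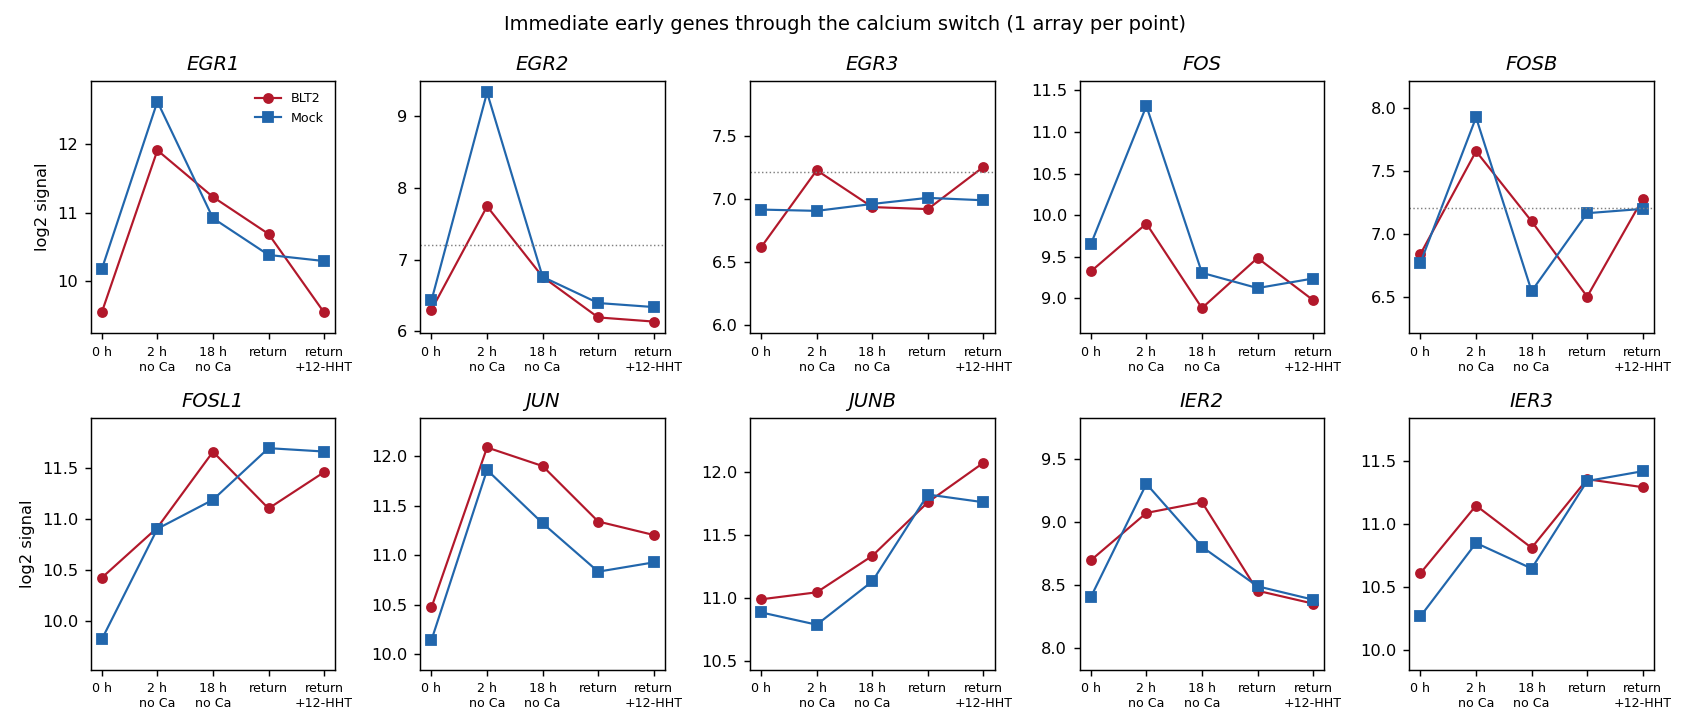
Log2 signal (vertical axis) of the 10 members at the 5 steps (horizontal axis) in BLT2 (circles) and Mock cells (squares), 1 array per point with no error bar; the dotted line is the filter level of 7.21, and the vertical scale differs between panels. EGR1, EGR2, FOS and FOSB peak at 2 h in both lines, JUN stays raised, and JUNB and IER3 are highest after calcium return.

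EGR1 showed the tallest response of the well detected members. In BLT2 cells its log2 signal was 9.55 at 0 h, 11.91 at 2 h, 11.23 at 18 h, 10.69 on calcium return and 9.54 on return with 12-HHT. Mock cells had 10.18 at 0 h, 12.62 at 2 h, 10.92 at 18 h, 10.38 on calcium return and 10.29 on return with 12-HHT. Both lines were highest at 2 h, lower at 18 h and lower again on calcium return alone. Return with 12-HHT, taken at the same time as return alone, lay below it in both lines.

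At 2 h EGR1 rose by 2.40 ± 0.30 over 0 h, a 5.29-fold change (limma adjusted p = 0.0094), and only 7 of the 10498 genes had a larger fitted rise. The change was 2.36 in BLT2 cells and 2.44 in Mock cells. In RNA from whole cultures, more responding cells and more transcript per cell cannot be told apart. At 18 h EGR1 was still 1.21 ± 0.30 above 0 h (adjusted p = 0.0239), with 1.68 in BLT2 cells and 0.74 in Mock cells. From 2 h to 18 h it fell by 1.19 ± 0.30 (adjusted p = 0.0293). Leaving out 1 array ended the 2 h call in 3 cases, Mock at 0 h (adjusted p = 0.0588), BLT2 at 0 h (0.108) and BLT2 at 2 h (0.0516). It ended the 18 h call for Mock at 0 h (0.0722), BLT2 at 0 h (0.142) and BLT2 at 18 h (0.184), and the later fall for each of the 2 h and 18 h arrays (0.065 to 0.165).

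EGR2, a relative of EGR1 best known from nerve and immune cells, lay below 7.21 at every step but 2 h. In BLT2 cells it stood at 6.30 at 0 h, 7.74 at 2 h, 6.76 at 18 h, 6.20 on return and 6.14 with 12-HHT. Mock cells stood at 6.43 at 0 h, 9.33 at 2 h, 6.76 at 18 h, 6.40 on return and 6.34 with 12-HHT. The 2 h arrays alone exceeded 7.21, and BLT2 minus Mock there was -1.58, while at every other step the lines differed by at most 0.20. EGR2 was tested only because its 2 h signals passed the filter, so it had to differ, and the sizes below are set against signals under 7.21. The fit gave 2.17 ± 0.35 at 2 h (limma adjusted p = 0.0196), a change of 1.44 in BLT2 cells and 2.89 in Mock cells, and -1.77 ± 0.35 from 2 h to 18 h (adjusted p = 0.0151). Leaving out the Mock 2 h array gave 1.44 and -1.05, and leaving out the BLT2 2 h array gave 2.89 and -2.50. The 2 h change was not called without the Mock or BLT2 0 h array (adjusted p = 0.121 and 0.138), nor the later one without the Mock or BLT2 18 h array (0.0862 and 0.0901).

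EGR3, which in other cells follows EGR1, stayed between 6.62 and 7.25 on all arrays. Its range of 0.64 over the 10 arrays was exceeded by 54.3% of tested genes, and it was called in none of the 8 comparisons fitted. At 2 h it was at 0.30 ± 0.16 (limma adjusted p = 0.302), with 0.61 in BLT2 cells and -0.01 in Mock cells. By contrast EGR1 had a range of 3.08, exceeded by 0.486% of tested genes. The range of EGR2, 3.19, was exceeded by 0.352%. It ran from signals below 7.21 to the 2 h signals through which EGR2 was tested, so its rank is no fair measure.

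FOS, the founding partner of AP-1, peaked at 2 h, and further in the Mock line. Its signal in BLT2 cells was 9.32 at 0 h, 9.90 at 2 h, 8.88 at 18 h, 9.49 on return and 8.98 with 12-HHT. Mock cells had 9.65 at 0 h, 11.31 at 2 h, 9.31 at 18 h, 9.12 on return and 9.24 with 12-HHT. The Mock array at 2 h stood apart from the other 9, the highest of which was the BLT2 array at 2 h. The 2 h change of 1.12 ± 0.34 was not called (limma adjusted p = 0.106), with 0.58 in BLT2 cells and 1.66 in Mock cells. From 2 h to 18 h FOS fell by 1.51 ± 0.34 (adjusted p = 0.0223), with -1.02 in BLT2 cells and -2.01 in Mock cells. Without the Mock 2 h array that fall was smaller, at -0.88 (adjusted p = 0.0559), and it was also not called when either 18 h array was left out, Mock (0.0929) or BLT2 (0.154).

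FOSB, another FOS protein, also peaked at 2 h, at a lower signal. Its values in BLT2 cells were 6.84 at 0 h, 7.66 at 2 h, 7.10 at 18 h, 6.50 on return and 7.28 with 12-HHT. Mock cells had 6.77 at 0 h, 7.93 at 2 h, 6.55 at 18 h, 7.17 on return and 7.2 with 12-HHT. Both 2 h arrays lay above all the others, with a change of 0.98 ± 0.25 that missed the threshold (limma adjusted p = 0.0701). Without its 2 h signals FOSB would not have passed the filter, and both 0 h signals lay below 7.21. Its peak at 2 h was therefore largely set in advance. From 2 h to 18 h the fit gave -0.97 ± 0.25 (adjusted p = 0.032), set against 18 h signals below 7.21, a call lost without any 1 of the 0 h, 2 h or 18 h arrays (0.0532 to 0.173). Without the Mock 18 h array the value was -0.59.

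FOSL1, the AP-1 protein FRA1 that is linked to migration of epithelial cells, had no early peak. BLT2 cells had 10.42 at 0 h, 10.92 at 2 h, 11.66 at 18 h, 11.10 on return and 11.46 with 12-HHT. Mock cells had 9.81 at 0 h, 10.90 at 2 h, 11.19 at 18 h, 11.70 on return and 11.67 with 12-HHT. Both lines were lowest at 0 h, and all later signals lay higher. FOSL1 rose by 1.31 ± 0.27 at 18 h (limma adjusted p = 0.0128) and was still 1.28 ± 0.27 above 0 h on calcium return (adjusted p = 0.0219), with 0.68 in BLT2 cells and 1.88 in Mock cells. The 18 h call did not survive leaving out Mock at 0 h (adjusted p = 0.0975) or BLT2 at 18 h (0.116). The call on return did not survive leaving out Mock at 0 h (0.133), BLT2 at 0 h (0.0682) or Mock on return (0.0986), and without the last the value was 0.88.

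JUN, the partner of FOS in the classic AP-1 dimer, gave the most stable result. In BLT2 cells it stood at 10.47 at 0 h, 12.09 at 2 h, 11.90 at 18 h, 11.34 on return and 11.20 with 12-HHT. In Mock cells it stood at 10.14 at 0 h, 11.86 at 2 h, 11.32 at 18 h, 10.83 on return and 10.93 with 12-HHT. The order of steps was nearly the same in both lines, and the highest signals were those at 2 h and 18 h.

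JUN rose by 1.66 ± 0.12 at 2 h, a 3.17-fold change (limma adjusted p = 0.00123), with 1.61 in BLT2 cells and 1.72 in Mock cells. At 18 h it was 1.30 ± 0.12 above 0 h (adjusted p = 0.00151), and on calcium return 0.78 ± 0.12 above it (adjusted p = 0.00823). The first 2 of these calls held in each fit that left out 1 array (adjusted p of up to 0.0191 and 0.0232). The third ended when BLT2 at 0 h was left out (0.084) and sat at the threshold when Mock at 0 h was (0.05). Calcium return against 18 h gave -0.52 ± 0.12, short of the threshold (adjusted p = 0.0599), although both lines moved alike, with -0.56 in BLT2 cells and -0.49 in Mock cells. In 4 of 10 other settings JUN was called lower. These were the 75th percentile filter, quantile normalization, an intensity trend and both return arrays of each line taken as calcium return. The last was chosen after the data were seen.

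JUNB, an AP-1 protein that often restrains JUN, followed another course. BLT2 cells had 10.99 at 0 h, 11.04 at 2 h, 11.33 at 18 h, 11.76 on return and 12.07 with 12-HHT. Mock cells had 10.88 at 0 h, 10.78 at 2 h, 11.13 at 18 h, 11.82 on return and 11.76 with 12-HHT. At 2 h JUNB was at -0.02 ± 0.11 (limma adjusted p = 0.933), and the 4 signals taken after calcium return were higher than the other 6. JUNB was 0.85 ± 0.11 above 0 h on calcium return (adjusted p = 0.00681), a call lost without the BLT2 0 h array (0.0724). Against 18 h it rose by 0.56 ± 0.11 (adjusted p = 0.0473), but this call was lost when any 1 of the 10 arrays was left out (0.0551 to 0.344).

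Of the 2 IER genes, IER3 also stood highest after calcium return. Its signals in BLT2 cells were 10.61 at 0 h, 11.15 at 2 h, 10.81 at 18 h, 11.36 on return and 11.29 with 12-HHT. In Mock cells they were 10.27 at 0 h, 10.85 at 2 h, 10.65 at 18 h, 11.34 on return and 11.42 with 12-HHT. All 4 arrays after calcium return exceeded the other 6, with a smaller early peak at 2 h. IER3 was 0.91 ± 0.13 above 0 h on return (limma adjusted p = 0.00803), which ended when either 0 h array was left out, Mock (0.0555) or BLT2 (0.0615). It was at 0.56 ± 0.13 at 2 h (adjusted p = 0.0602) and at 0.62 ± 0.13 for return against 18 h (adjusted p = 0.054), both just short of the threshold.

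IER2 was highest without calcium. BLT2 cells had 8.69 at 0 h, 9.07 at 2 h, 9.15 at 18 h, 8.45 on return and 8.35 with 12-HHT. Mock cells had 8.40 at 0 h, 9.30 at 2 h, 8.80 at 18 h, 8.49 on return and 8.38 with 12-HHT. In both lines the 2 h and 18 h signals exceeded the other 3. The fitted values were 0.64 ± 0.15 at 2 h (limma adjusted p = 0.063), 0.43 ± 0.15 at 18 h (adjusted p = 0.0754) and -0.51 ± 0.15 for return against 18 h (adjusted p = 0.133), and IER2 was called in none of the 8 comparisons.

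**Figure D2:**
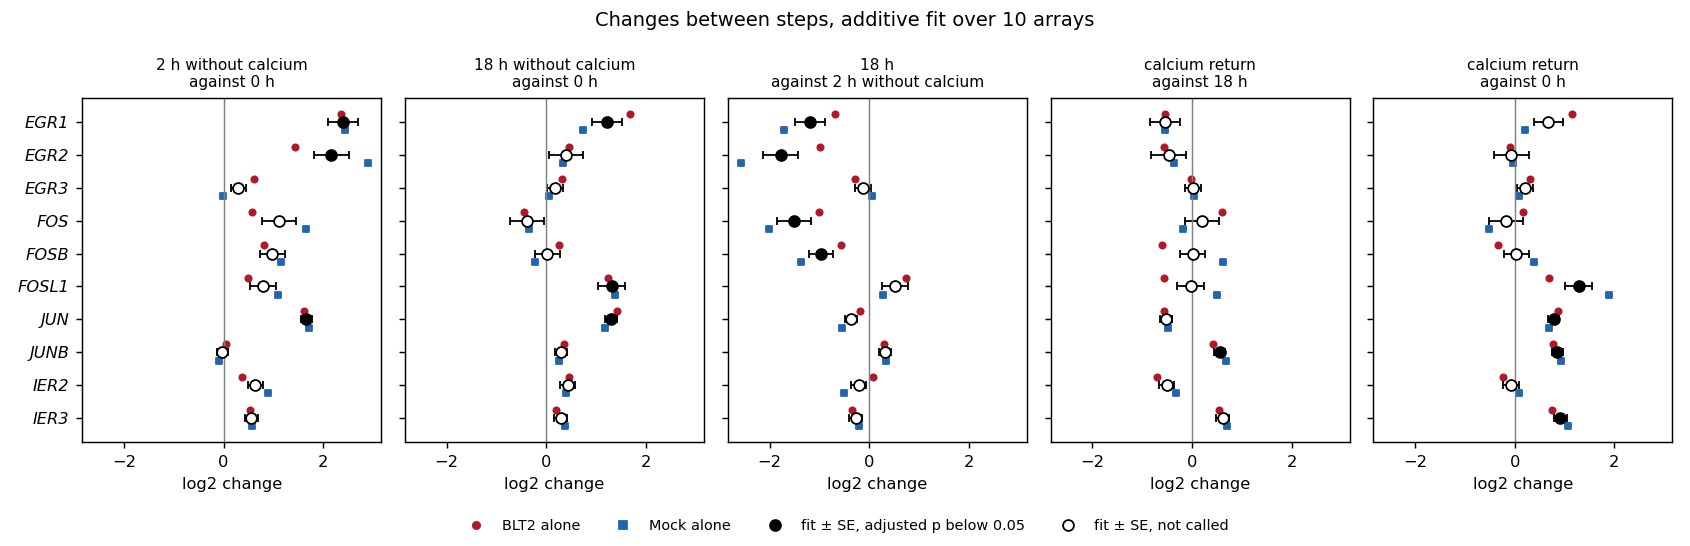
Log2 change (horizontal axis) of each member (rows) in 5 comparisons of steps. Black points with bars are the additive fit ± SE over 10 arrays, filled where the adjusted p is below 0.05; coloured points are the change in BLT2 cells (circles, above) and Mock cells (squares, below), 1 array against 1 array each. The early members EGR1, EGR2 and JUN are called at 2 h, and FOSL1, JUN, JUNB and IER3 are called for return against 0 h.

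Counted over the group, 3 of 10 members were called higher and 0 lower at 2 h, with a median change of 0.89 against -0.02 for all tested genes. Of these 3, EGR2 had its 0 h signals below 7.21, which leaves EGR1 and JUN. Of all tested genes 4.62% were called at this step, 2.64% higher and 1.98% lower. At 18 h 3 of 10 rose and 0 fell, where 27.2% of all genes were called, 15% higher and 12.2% lower, and the median was 0.34 against 0.02. From 2 h to 18 h 0 were called higher and 4 lower, EGR1, EGR2, FOS and FOSB, against 22.7% called, 14.3% higher and 8.33% lower, among all genes, and the median was -0.32 against 0.03. Of these 4, EGR2 and FOSB had their 18 h signals below 7.21, which leaves EGR1 and FOS.

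Calcium return against 18 h called 1 of 10, JUNB, against 3.34% called, 0.772% higher and 2.57% lower, among all genes, with a median of -0.01 against 0.02. Calcium return against 0 h had 4 of 10 higher and 0 lower, FOSL1, JUN, JUNB and IER3, against 15% called, 7.75% higher and 7.29% lower, among all genes, and the median was 0.44 against 0.03. Comparisons with 0 h share their 0 h arrays. The medium changed together with calcium, and the labels name serum for 0 h alone, so effects of calcium, medium and serum cannot be told apart.

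The members followed different courses. EGR1, EGR2, FOS, FOSB and JUN had their highest signal at 2 h in both lines, while JUNB and IER3 had theirs on an array taken after calcium return in both lines. FOSL1 was highest at 18 h in BLT2 cells and on return in Mock cells. Over the 10 arrays Pearson's r was 0.906 between EGR2 and FOS, 0.892 between EGR1 and EGR2 and 0.799 between JUNB and IER3, but -0.373 between FOS and FOSL1 and -0.613 between FOS and JUNB. These correlations describe 10 arrays that share lines and steps. FOSB would not have passed the filter without its 2 h signals. EGR2 was tested only through its 2 h signals and lay below 7.21 at the other steps. Its r with members that peak at 2 h was therefore largely set in advance. Between EGR2 and FOS r was 0.622 in BLT2 cells and 0.97 in Mock cells, and between EGR1 and EGR2 it was 0.848 and 0.985.

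Between the lines, JUN was the only member called. It was higher in BLT2 than in Mock cells at 5 of 5 steps, by 0.23 to 0.58 on the log2 scale, and had a fitted difference of 0.38 ± 0.07 (limma adjusted p = 0.0161). That call was lost without either 18 h array (adjusted p = 0.052) or either array of calcium return alone (0.0503). Among all tested genes 15.9% were called for BLT2 against Mock, 7.82% higher and 8.13% lower. EGR2 was at -0.42 ± 0.22 (adjusted p = 0.22) and FOS at -0.41 ± 0.22 (adjusted p = 0.222), and without either 2 h array these values were -0.13 and -0.16. BLT2 minus Mock for EGR1 was -0.63 at 0 h, -0.71 at 2 h and -0.75 on return with 12-HHT, but 0.31 at both 18 h and return.

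At 2 h all 9 members with a signal above 7.21 in both lines had the larger size of change in Mock cells, though JUNB was near 0 in both lines, with 0.06 in BLT2 and -0.10 in Mock cells. Of 9765 genes counted in the same way 30.4% had the larger change in Mock cells. With 1 array against 1 array there is no test of that difference. A log2 rise of at least 1 at 2 h was seen for EGR1, EGR2 and JUN in BLT2 cells, 3 of 10 members, where 1.22% of 10492 genes rose as much. In Mock cells it was seen for EGR1, EGR2, FOS, FOSB, FOSL1 and JUN, 6 of 9 members with a signal above 7.21, where 1.18% of 9901 genes rose as much. EGR2 in both lines and FOSB in Mock cells were counted only through their 2 h signal, with 0 h signals below 7.21. The BLT2 2 h array was the one least like the other arrays, and its part in this difference was not tested.

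**Figure D3:**
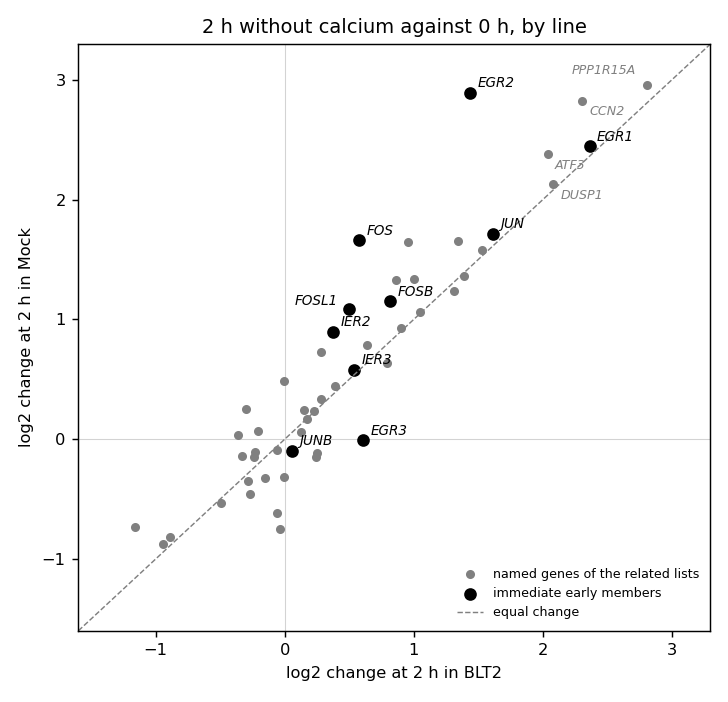
Log2 change from 0 h to 2 h in BLT2 cells (horizontal axis) and Mock cells (vertical axis), 1 array against 1 array in each line, for the 10 members (black) and the named genes of the related lists (grey); the dashed line marks equal change. EGR2 and FOS lie well above the line, while EGR1 and JUN lie close to it.

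Whether BLT2 minus Mock shifted after calcium return against before it was tested with 1 term for both return steps. The term is signed, so a shift can part the lines, bring them closer or reverse their order. Among all tested genes 11.3% were called, 8.5% higher and 2.84% lower. Limma called 0 of 10 members, while 2 had an unadjusted p below 0.05, FOSL1 and IER3, as had 31.6% of all tested genes. FOSL1 was at -0.76 ± 0.20 (limma adjusted p = 0.0543). BLT2 minus Mock for FOSL1 was 0.61 at 0 h, 0.01 at 2 h, 0.47 at 18 h, -0.59 on return and -0.20 on return with 12-HHT. It was called without either 2 h array and in 4 of the 6 other settings. FOS was at 0.77 ± 0.34 (adjusted p = 0.171) and IER3 at -0.32 ± 0.11 (adjusted p = 0.0998). BLT2 minus Mock for IER3 was 0.34 at 0 h, 0.30 at 2 h and 0.16 at 18 h. It was 0.01 on return and -0.13 on return with 12-HHT.

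With 12-HHT 5 of the 7 members with a signal above 7.21 in both lines had the larger size of difference in BLT2 cells, as did 49.5% of 9756 genes counted in the same way, and with 1 array each this was not tested. In BLT2 cells EGR1 stood at 9.54 with 12-HHT against 10.69 on return alone, a difference of -1.15 or 2.21-fold lower, which only 1 of 10011 genes exceeded downwards. In Mock cells EGR1 stood at 10.29 with 12-HHT against 10.38 without, a difference of -0.09. The signal of BLT2 cells at 0 h was 9.55.

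FOS in BLT2 cells stood at 8.98 with 12-HHT against 9.49 without, a difference of -0.51, and was 20th from the lower end. In Mock cells FOS differed by 0.12. FOSB in BLT2 cells differed the other way, with 7.28 against 6.50, a difference of 0.78 and 11th from the upper end, but the signal without 12-HHT lay below 7.21. FOSL1 and JUNB differed by 0.36 and 0.31 in BLT2 cells, and JUN, IER2 and IER3 by -0.14, -0.10 and -0.06. EGR3 differed by 0.34 in BLT2 cells, with 7.25 against 6.92, and its signal without 12-HHT also lay below 7.21.

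Of the 9 members counted in BLT2 cells, 3 lay outside the 1st to 99th percentile of all genes, which ran from -0.35 to 0.40. They were EGR1, FOS and FOSB, the last counted only through its signal of 7.28 with 12-HHT. Line and step left a residual SD of 0.39 for EGR1, 0.45 for FOS and 0.32 for FOSB over all arrays. Percentiles of all genes do not allow for how much each gene varies. EGR3, which lay within the percentiles, was likewise counted only through its signal of 7.25 with 12-HHT. Of the 7 members counted in Mock cells 0 did, the largest size being 0.12, with percentiles at -0.36 and 0.35. EGR2 in both lines, and EGR3 and FOSB in Mock cells, were not counted because both signals lay below 7.21. A log2 difference of at least 1 was seen downwards in 0.02% of genes and upwards in 0.04% in BLT2 cells, and in 0% either way in Mock cells. One of at least 0.58 was seen downwards in 0.11% and upwards in 0.38% of genes in BLT2 cells, and in 0.0393% and 0.0687% in Mock cells.

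Over both lines together limma called 0 of 10498 genes for 12-HHT, that is 0%. An unadjusted p below 0.05 was found for 29 genes, or 0.276%, fewer than that threshold passes with no effect. The error of the fit was thus wide for this comparison, and the 0 calls do not show that 12-HHT had no effect. Among the members 0 had an unadjusted p below 0.05, with EGR1 at -0.62 ± 0.30 (unadjusted p = 0.0748, limma adjusted p = 1). The fit takes its error from all unequal responses of the lines, and each line alone offers 1 array against 1, so the EGR1 difference has no replicate check.

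**Figure D4:**
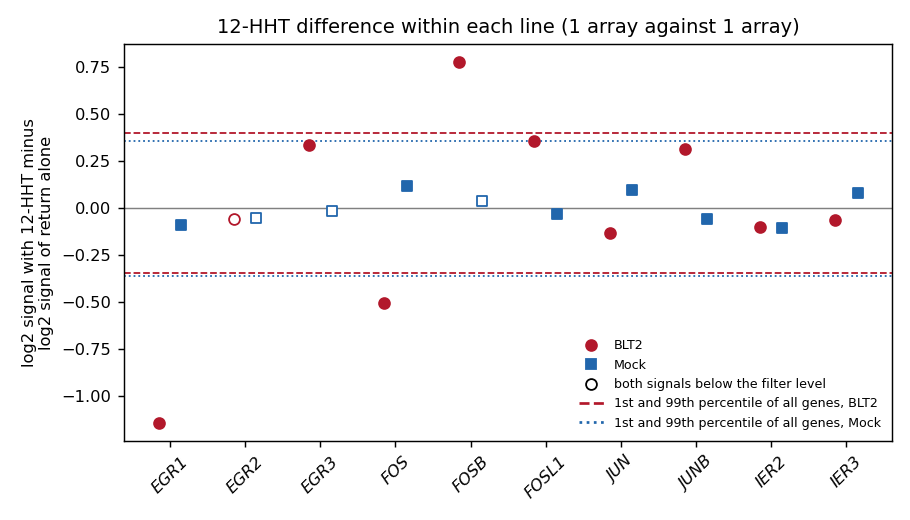
Log2 signal on calcium return with 12-HHT minus that on return alone (vertical axis) for each member in BLT2 (circles) and Mock cells (squares), 1 array against 1 array; open symbols have both signals below the filter level of 7.21. Lines mark the 1st and 99th percentile of all genes in BLT2 (dashed) and Mock cells (dotted). EGR1 and FOS of BLT2 cells lie below the lines and FOSB above, while the filled Mock points lie within them.

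Genes around the members were grouped in lists, with the shares of all genes given above as background. Of 12 tested AP-1 and bZIP partners 4 rose and 0 fell at 2 h, with a median change of 0.13. These were ATF3, a stress factor that pairs with JUN, at 2.21 ± 0.14 (limma adjusted p = 0.00123), the small MAF protein MAFF at 1.30 ± 0.20, the AP-1 repressor JDP2 at 0.92 ± 0.11 and FOSL2 at 0.71 ± 0.12. The 0 h signals of MAFF lay below 7.21, at 6.83 in BLT2 and 6.67 in Mock cells. ATF3 held its call without each array in turn. MAFF, JDP2 and FOSL2 lost it without either 0 h array, and JDP2 and FOSL2 also when BLT2 at 2 h was left out (up to 0.177). JUND, an AP-1 protein that is usually constant, fell by 0.50 ± 0.12 at 18 h (adjusted p = 0.0241) and rose by 0.71 ± 0.12 on calcium return (adjusted p = 0.0291). Without the Mock 0 h array the 18 h value of JUND was -0.31. With no line term neither JUND call held. Both JUND calls were lost without either 18 h array or, for the fall, the Mock 0 h array, and the rise also without any return array (adjusted p of up to 0.279).

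Among the 10 tested genes of the SRF and EGR corepressor list 1 rose and 0 fell at 2 h, SRF itself. SRF had 9.0 at 0 h, 10.31 at 2 h, 9.21 at 18 h, 8.95 on return and 9.12 with 12-HHT in BLT2 cells. Mock cells had 9.0 at 0 h, 10.24 at 2 h, 9.13 at 18 h, 9.07 on return and 9.12 with 12-HHT. The lines nearly coincided at each step. SRF rose by 1.28 ± 0.10 (limma adjusted p = 0.00157) and fell by 1.10 ± 0.10 from 2 h to 18 h (adjusted p = 0.00352), and both calls held without each array in turn. ELK4, an ETS partner of SRF, rose by 0.71 ± 0.09 at 18 h (adjusted p = 0.00249). NAB2, a corepressor that EGR1 itself induces in other cells, was at -0.36 ± 0.11 at 2 h (adjusted p = 0.115).

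The list of other immediate early transcription regulators had 2 of 12 higher and 1 lower at 2 h, with a median of 0.13. The 2 were KLF6, a zinc finger factor, at 1.17 ± 0.21 (limma adjusted p = 0.0281), and NFKBIZ, a nuclear IkB protein, at 0.72 ± 0.11 (adjusted p = 0.0148), and IER5L fell by 0.51 ± 0.09. KLF6, NFKBIZ and IER5L were not called without either 0 h array (adjusted p of up to 0.256), among other arrays. MYC, a growth regulator often grouped with these genes, was at -0.02 ± 0.27 at 2 h (adjusted p = 0.967). Effectors and mRNA decay factors had 6 of 17 higher and 2 lower at 2 h and 10 higher and 2 lower at 18 h, with medians of 0.71 and 0.73. PPP1R15A, which lifts the stress block on translation, rose by 2.88 ± 0.16 at 2 h and fell by 2.77 ± 0.16 on calcium return against 18 h (limma adjusted p = 0.00123 and 0.00141). CCN1, which encodes a secreted matrix protein, rose by 1.38 ± 0.09 at 2 h and fell by 1.95 ± 0.09 on return against 18 h (adjusted p = 0.00123 and 0.000621). These 4 calls held without each array in turn. In BLT2 cells PPP1R15A lay below 7.21 at 0 h (7.12) and on return (7.13).

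MAP kinase cascades feed these genes. Of 15 MAP kinases and their activators limma called 0 at 2 h. At that step 1 had an unadjusted p below 0.05, against 23.5% of all tested genes. At 18 h 3 rose, BRAF, MAPK8 and MAP2K3, by 0.36 to 0.69. These calls were lost without any 1 of the 0 h or 18 h arrays. Of 9 phosphatases that switch MAP kinases off, 2 rose and 1 fell at 2 h. DUSP1 had the highest rise, 2.10 ± 0.16 (adjusted p = 0.00157), while DUSP7 fell by 0.91 ± 0.11 (adjusted p = 0.0092). DUSP1 held its call without each array in turn, and DUSP7 lost it when either 0 h array or BLT2 at 2 h was left out (up to 0.112). DUSP8 rose by 1.05 ± 0.23 (adjusted p = 0.0498), a call lost without 8 of the 10 arrays (up to 0.358). Of the 5 tested reference genes limma called 0 at 2 h and at 18 h. In each 1 had an unadjusted p below 0.05, against 23.5% and 40.1% of all tested genes. The list medians were -0.0402 and -0.0047, but HPRT1 was at -0.60 at 2 h and -0.87 at 18 h (limma adjusted p = 0.255 and 0.0593).

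**Figure D5:**
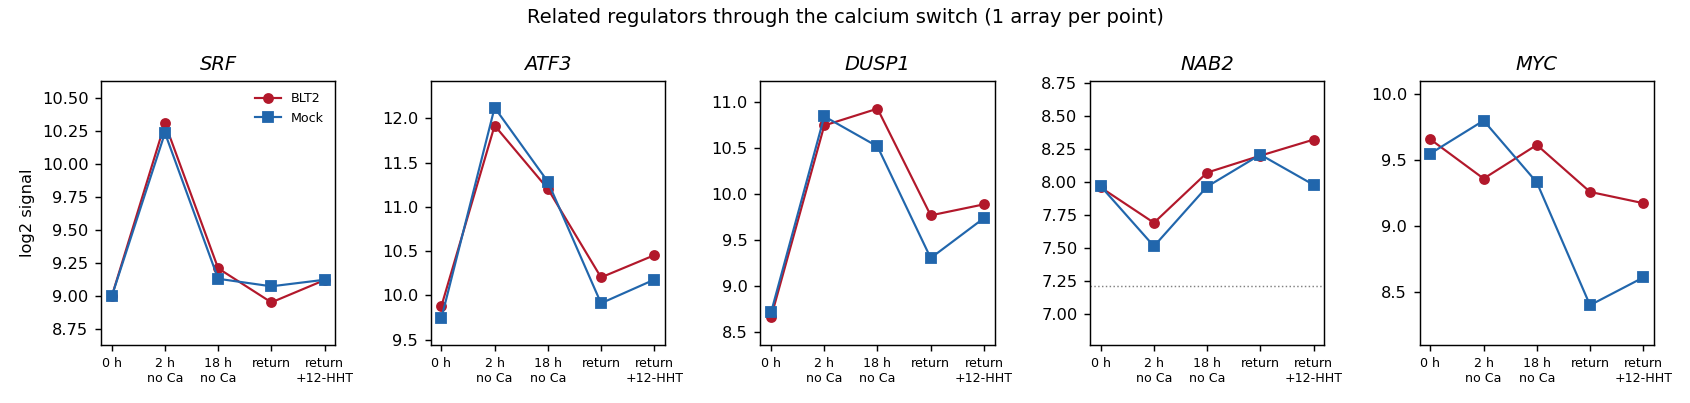
Log2 signal (vertical axis) of SRF, ATF3, DUSP1, NAB2 and MYC at the 5 steps (horizontal axis) in BLT2 (circles) and Mock cells (squares), 1 array per point with no error bar; the dotted line is the filter level of 7.21. SRF peaks at 2 h alone, DUSP1 stays raised at 18 h, and NAB2 has its lowest signal at 2 h in both lines.

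Of 12 tested AP-1 target genes, 2 rose and 1 fell at 2 h. HBEGF, a ligand of the EGF receptor, rose by 1.5 ± 0.23 (limma adjusted p = 0.0169) and CCND1, cyclin D1, fell by 0.95 ± 0.13 (adjusted p = 0.0133). Both calls ended when either 0 h array or BLT2 at 2 h was left out (up to 0.146). The urokinase gene PLAU rose by 1.08 ± 0.18 at 18 h (adjusted p = 0.00667), not called when Mock at 0 h or at 18 h was left out. PLAU was 1.31 ± 0.18 above 0 h on return (adjusted p = 0.00748), a call lost without either 0 h array. With no line term neither PLAU call held (limma adjusted p = 0.179 and 0.173).

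The genes whose signal ran most like a member's over the 10 arrays were looked for among all tested genes. JUN was closest to DUSP1, with Pearson's r of 0.952, and then to TRIB3 (0.949) and TGFB2 (0.944). EGR1 was closest to CHAC1 (0.957), EGR2 to NFRKB (0.978), FOS to VWA8 (0.978), JUNB to NECTIN1 (0.979), FOSL1 to CDK16 (0.958) and IER3 to SH3BP2 (0.962). EGR3 and FOSB had the weakest best matches, at 0.907 and 0.861. With 10 arrays and 10498 genes such values are descriptions of likeness only. For EGR2 only the 2 h signals lay above 7.21.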

How the data were processed

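The authors hybridised RNA mixed from 3 preparations to GeneChip Canine Gene 1.0 ST arrays, 1 for each of 10 line and step combinations. The scale of the deposited signals, log2, was inferred from the values (lowest 1.55). GCRMA in Affymetrix Expression Console is named in the submitters' processing notes. GCRMA corrects background by probe sequence and scales arrays to each other. Versions are not given in the sources used here. The authors' scaling hides shifts common to a whole array.

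Of 32391 probe sets 16545 had 1 symbol in the platform annotation, dated and possibly old, and 370 with several symbols were left out. For 516 genes with several probe sets the one with the highest mean was used. Gene IDs matched 15333 probe sets to the supplied gene table, which changed 0 symbols. Value columns without a sample numbered 0.

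Step and line differences were tested in limma 3.58.1 (R 4.3.3) with additive terms for line and step, 4 residual degrees of freedom and an eBayes prior of 3.46. The test of the lines after return against before had 3 residual degrees of freedom. The 8 comparisons were adjusted separately by Benjamini and Hochberg. P-values measure only what the model leaves unexplained, and the number of arrays limits precision. The scripts were tested on simulated data. Named are all 10 members, up to 6 called genes per list by size, 5 fixed regulators and the 3 most alike genes per member, of which part is printed. The members and the lists were chosen with earlier results of these data known.

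Alternatives were no filter, a 75th percentile filter, quantile normalization, median centring, the mean of probe sets, an intensity trend, no 12-HHT arrays, only the 4 arrays compared, no line term, leaving out each array, and both return arrays pooled, the last added after seeing the data. The lists held AP-1 partners, other immediate early regulators, effectors, SRF and EGR corepressors, MAP kinases, their phosphatases, AP-1 targets, reference genes, and epithelial, fibroblast, endothelial and leukocyte markers. Promoter and protein sequences were not used here.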

Additional observations from a re-analysis of the deposited data

Results flagged for a closer look

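FOSB and FOSL1 differed in opposite directions in the lines when calcium was returned after 18 h. FOSB changed by -0.60 in BLT2 cells and by 0.62 in Mock cells. FOSL1 changed by -0.56 in BLT2 cells and by 0.51 in Mock cells. Each change compares 1 array with 1 array, and the difference between the lines in this step was not tested. All 4 FOSB signals behind these changes lay below the filter level of 7.21, with 7.10 at 18 h and 6.50 on return in BLT2 cells, and 6.55 at 18 h and 7.17 on return in Mock cells.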

How the results depend on the processing

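Across the 8 comparisons the members had 16 calls, of which 2 held without each array in turn and in every other setting, JUN at 2 h and at 18 h, and 9 held in every other setting. Of the 16, 3 were of EGR2 or FOSB against signals below 7.21. Across alternatives 71 of 3565 gene values changed sign, 0 of them called, the largest at 0.37. The number of members called at 2 h was 3, against 8 with only the 4 arrays compared and 1 to 4 with 1 array left out. At 18 h it was 3, against 8 with only those 4 arrays and 1 to 4 with 1 array left out. From 2 h to 18 h it was 4, against 1 with no line term, 3 with the 75th percentile filter, 5 with quantile normalization or only those 4 arrays, 6 with an intensity trend and 0 to 4 with 1 array left out. For calcium return against 18 h it was 1, against 0 with no filter, median centring, no 12-HHT arrays, only the 4 arrays or no line term, 3 with the 75th percentile filter or an intensity trend, 4 with both return arrays pooled, and 0 in each fit without 1 array. For calcium return against 0 h it was 4, against 0 to 4 with 1 array left out. For BLT2 against Mock it was 1, against 0 to 1. For the lines after return against before it was 0, against 1 with the 75th percentile filter, quantile normalization or median centring, 2 with an intensity trend, and 0 to 2 with 1 array left out. With 1 array left out, the number of all genes called was 34 to 1024 at 2 h (485 with all arrays), 591 to 3148 at 18 h (2860), 37 to 2279 from 2 h to 18 h (2381), 2 to 375 for return against 18 h (351), 40 to 1848 for return against 0 h (1579), 575 to 1116 for BLT2 against Mock (1674) and 51 to 1756 for the lines after return against before (1190). Over the other settings, in the same order, it was 118 to 1805, 1264 to 5460, 760 to 2648, 64 to 1054, 415 to 3011, 575 to 1888 and 607 to 1717. The cause of these changes was not tested. A member count in any setting has to be read beside the count of all genes in that setting, for which only these ranges are given. Fits to only the 4 arrays compared leave fewer residual degrees of freedom than the main fit. The 12-HHT difference of EGR1 in BLT2 cells was -1.15, against -1.16 with quantile normalization and -1.17 with median centring. Where an array is left out, the lone array of its step is assumed to vary like the rest. The line term pairs the steps within each line, and the fits with no line term are the unpaired alternative. With no line term limma no longer called EGR2 at 2 h (adjusted p = 0.0615) or EGR1 at 18 h (0.0568). Nor did it call the falls from 2 h to 18 h of EGR1 (0.0718), FOS (0.0637) and FOSB (0.0562). The calls of JUN for return against 0 h (0.131) and JUNB for return against 18 h ended as well. In the related lists FOSL2, JDP2, KLF6, NFKBIZ, IER5L, CCN2, GADD45B, DUSP8 and HBEGF lost their 2 h calls.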

Other observations

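Some genes of the related lists differed between the lines more than any member did. GEM, a small GTPase of the immediate early group, was higher in BLT2 than in Mock cells by 1.5 ± 0.15 (limma adjusted p = 0.00174), and DUSP10, a phosphatase of p38 and JNK, by 1.71 ± 0.26 (adjusted p = 0.00787). Both calls held without each array in turn. DUSP10 in BLT2 cells had 10.65 at 0 h, 9.76 at 2 h, 9.14 at 18 h, 11.03 on return and 11.48 with 12-HHT. In Mock cells it had 9.40 at 0 h, 8.59 at 2 h, 8.08 at 18 h, 8.73 on return and 8.70 with 12-HHT. Both lines declined without calcium, and lay furthest apart after its return. The difference between the lines grew by 1.38 ± 0.16 after return (adjusted p = 0.00703), also without each array in turn.

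The collagenase gene MMP13, an AP-1 target, had 9.80 at 0 h, 9.74 at 2 h, 10.50 at 18 h, 11.90 on return and 12.71 with 12-HHT in BLT2 cells. In Mock cells it had 9.05 at 0 h, 8.43 at 2 h, 7.85 at 18 h, 7.67 on return and 7.65 with 12-HHT. It was highest with 12-HHT in BLT2 cells and at 0 h in Mock cells. The difference between the lines grew by 3.08 ± 0.52 after return (limma adjusted p = 0.017), a call lost without either 0 h array or any return array (adjusted p of up to 0.089). PLAU was higher in BLT2 cells by 0.78 ± 0.12 (adjusted p = 0.00732), and CREM, a cAMP-responsive bZIP factor, was at -0.65 ± 0.10 (adjusted p = 0.00817), and both calls held without each array in turn. HPRT1, listed as a reference gene, fell by 1.10 ± 0.28 on calcium return against 0 h (adjusted p = 0.0425), with -1.15 in BLT2 cells and -1.04 in Mock cells, a call lost without any 1 of the 0 h or return arrays, with or without 12-HHT (adjusted p of up to 0.237).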
